A study of Mus musculus with 6 samples.

Results

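The TRIM family comprises the mouse genes whose platform symbol begins with Trim followed by a digit and whose array row names that gene alone. The rule found 59 such genes among 19937 genes with a row of their own, and each of the 59 had a single row. Of these, 45 passed a filter on low values (a mean of at least 5.205 on the log2 scale over the 6 arrays, the 25th percentile of all rows with a gene) and were tested among 15037 genes. No tested member had a group mean under that filter. A further 6 rows carried a Trim symbol together with other symbols and were not used.

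The cells are mouse regulatory T cells (Tregs), a CD4+ lineage that holds immune responses in check. Wild-type donors supplied peripheral T cells (strain C57BL/6 in the labels), and all recipients lacked CD3ε and hence had no T cells before the transfer. Recipients of the competent group expressed MHC class II, which presents peptides to CD4+ T cells, and those of the deficient group lacked it as well as CD3ε. Both hosts kept their non-T cells. CD4+ TCRβ+ CD25+ cells were taken 5 days later with beads and a sorter, with lymph nodes and spleen as the tissue of origin and an age of 6 to 8 weeks in the labels, and 100 ng of total RNA was labelled per array. There were 3 arrays per group, called biological replicates in the labels, which do not say whether animals were pooled. The p-values therefore measure the spread between these preparations. All 8 tested T cell and Treg markers, Foxp3, Cd4 and Cd3e among them, had means above the filter. All 8 had a negative difference (median -0.17), and Cd3d, Cd3g, Il2ra, Ctla4 and Ikzf2 were lower on every deficient array, which held for 12.9% of all genes tested. Of the 8, 0 passed limma's test (3 at an unadjusted p under 0.05). The values are of the whole sort, in which more cells of a type and more RNA per cell cannot be told apart.

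TRIM proteins are built from a RING finger, B-boxes and a coiled coil, followed by a C-terminal domain that differs between subfamilies. Most are ubiquitin ligases, and many take part in antiviral defence, where they modify RNA and DNA sensors or the adaptors below them. A subset is induced by interferons through the interferon-stimulated response element (ISRE), which is bound by IRF factors, while other members act in transcription, the cytoskeleton or development. Interferon-induced members here are Trim12a, Trim12c, Trim14, Trim21, Trim25, Trim26, Trim30a, Trim30d, Trim34a, Trim38 and Trim56. The other 48 members were described by the class of their C-terminal domain.

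The ISRE core was searched as GAAA, any 2 bases and GAAA, on both strands, in the RefSeq promoter windows of build GRCm38.p6, which run from 250 bases before to 50 after an annotated start. A window was found for 46 of the 59 members. The core was present for 7 of the 10 interferon-induced members with a window (70.0%), for 1 of the 36 others (2.78%) and for 3.99% of all 27025 genes with a window. The 7 include Trim30a with Trim30d and Trim12a with Trim12c, whose sites are identical or nearly so. Among interferon-stimulated reference genes with a window, 6 of 11 held the core (54.5%). The sites are shown because most interferon-induced members share them and the choice of members did not use them. Each line gives 30 bases of the gene's own strand, 5′ to 3′, with every base that lies in a match in capitals. TTTC, any 2 bases and TTTC is the core read on the opposite strand.
Trim12a, chr7:104315466-104315495, minus strand: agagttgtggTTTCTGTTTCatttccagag
Trim12c, chr7:104353359-104353388, minus strand: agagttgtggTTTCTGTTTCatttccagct
Trim30a, chr7:104465210-104465239, minus strand: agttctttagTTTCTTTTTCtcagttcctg
Trim30a at its other annotated start, chr7:104446104-104446133, minus strand: ttgtttttagTTTCTTTTTCtcagttcctg
Trim30d, chr7:104507871-104507900, minus strand: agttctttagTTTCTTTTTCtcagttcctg
Trim34a, chr7:104244457-104244486, plus strand: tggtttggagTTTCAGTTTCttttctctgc
Trim21, chr7:102565447-102565476, minus strand: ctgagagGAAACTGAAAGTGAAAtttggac
Trim26, chr17:36836979-36837008, plus strand: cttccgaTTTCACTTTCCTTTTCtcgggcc

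With the first transcribed base as +1, the matches began at 11 bases into the transcript for Trim12a and Trim34a, at 14 for Trim21, at 3 for the other start of Trim30a, and at -29 for Trim12c, -36 for Trim30a, -41 for Trim30d and -160 for Trim26. Trim21 and Trim26 each held 2 overlapping matches. The sites of Trim30a and Trim30d were identical over 30 of 30 bases, and those of Trim12a and Trim12c over 28 of 30. Trim30a and Trim30d also share the sequence around the site, as the 100 bases before each start show.
Trim30a, chr7:104465194-104465293, minus strand: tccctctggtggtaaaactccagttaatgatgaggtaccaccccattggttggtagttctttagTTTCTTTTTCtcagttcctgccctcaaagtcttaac
Trim30d, chr7:104507850-104507949, minus strand: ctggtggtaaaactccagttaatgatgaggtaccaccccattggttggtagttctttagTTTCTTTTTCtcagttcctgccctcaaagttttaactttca

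The windows of Trim25, Trim38 and Trim56 did not hold these letters, which says nothing of sites elsewhere. A match is a description of the letters and not a site of binding.

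Several interferon-induced TRIM genes were higher in the Tregs from MHC II-deficient recipients, and the differences of the rest of the family centred near 0. Trim12a, Trim30a and Trim30d rose, by 1.60-fold, 1.46-fold and 1.46-fold. They were the 3 TRIM genes past the threshold, a Benjamini-Hochberg adjusted p under 0.05 in limma's test over all 15037 genes, and 0 fell. That is 3 of 45 tested members (6.67%), where 3.37% of all genes tested passed, and 3 of the 10 tested interferon-induced members (30%), where 1.34% of all genes were higher and 2.03% lower. All 10 had a positive difference, with a median of 0.51 on the log2 scale, against 0.01 for the 35 other TRIM genes and 0.02 for all genes tested. The interferon-induced list was chosen with earlier results of these data known, so this contrast is a description and was not tested. The 3 calls lay close to the threshold. None of the 45 TRIM genes passed without competent 1, competent 2, deficient 1 or deficient 3 (7 to 9 at an unadjusted p under 0.05), while 3 passed without competent 3 and 2 without deficient 2. The median of the 10 members stayed between 0.43 and 0.56 with any 1 array left out.

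**Figure D1:**
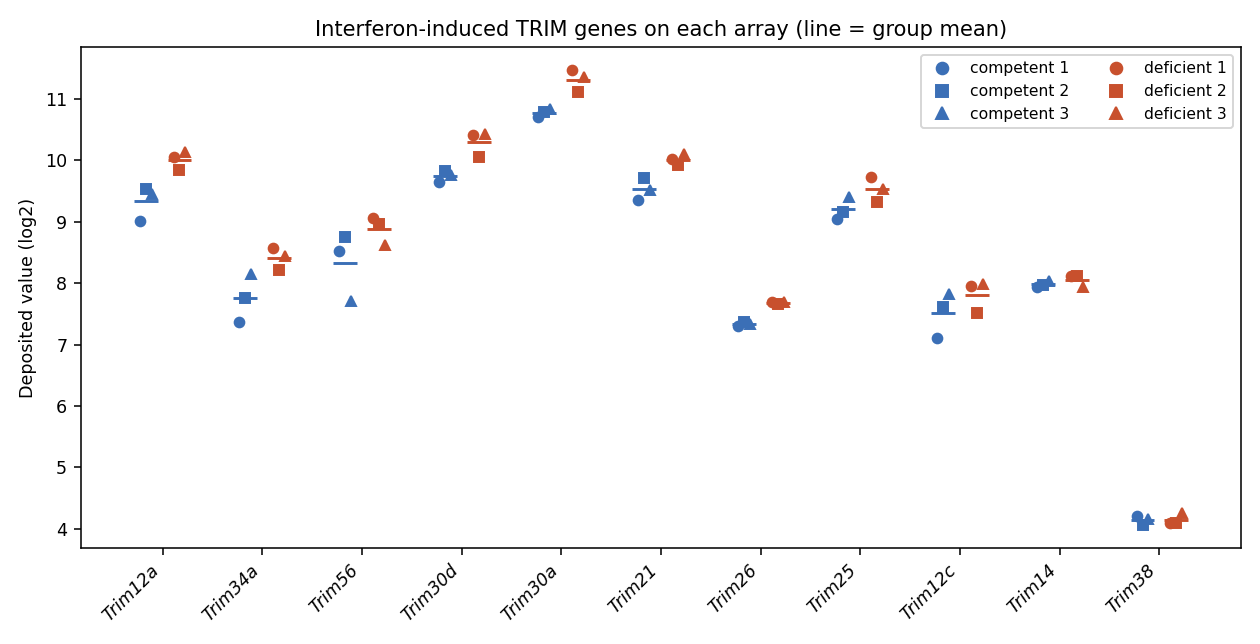
Deposited log2 value of each of the 11 interferon-induced TRIM genes on the 3 MHC II-competent (blue) and 3 MHC II-deficient (orange) arrays, with a line at each group mean and 1 marker shape per replicate number. The groups are apart for Trim12a, Trim34a, Trim30d, Trim30a, Trim21 and Trim26, and overlap for Trim56, Trim25, Trim12c, Trim14 and Trim38; heights of different genes are not comparable.

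Trim30a (row 10566358) encodes a PRY-SPRY protein known as a feedback inhibitor of Toll-like receptor signalling through TAB2 and TAB3. It stood at 10.70, 10.79 and 10.83 on competent 1 to 3 and at 11.47, 11.12 and 11.36 on deficient 1 to 3. The groups did not overlap, and deficient 2 was the lowest of its group. The difference was 0.54 (SE 0.11, adjusted p = 0.034), from 10.78 ± 0.07 to 11.32 ± 0.18 (SD, n = 3).

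Trim30d (row 10566366), a near copy of Trim30a and its neighbour, was at 9.65, 9.83 and 9.77 on the competent and at 10.42, 10.05 and 10.43 on the deficient arrays. Again every deficient array was higher and deficient 2 came nearest to the competent group. The difference was 0.55 (SE 0.12, adjusted p = 0.048). The rows of Trim30a and Trim30d can bind transcripts of near-identical copies, as can those of Trim12a and Trim12c, so which copy each row measures is uncertain.

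Trim12a (row 10566326) belongs to the genes related to primate TRIM5, a factor that restricts retroviruses. Its values were 9.02, 9.54 and 9.45 on the competent and 10.06, 9.84 and 10.14 on the deficient arrays, with competent 1 the lowest and no overlap. The difference of 0.68 (SE 0.15, adjusted p = 0.041) took it from 9.33 ± 0.28 to 10.01 ± 0.16 (SD, n = 3).

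Trim12c (row 10566346), whose product can cooperate with TRAF6, was at 7.11, 7.62 and 7.83 on the competent and 7.95, 7.51 and 7.98 on the deficient arrays. Deficient 2 lay within the competent range. The difference of 0.29 did not pass (95% interval from -0.14 to 0.72, adjusted p = 0.46). It was 0.44 without deficient 2, 0.45 without competent 3 and 0.08 without competent 1.

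Trim34a (row 10555862), a PRY-SPRY gene of the same chromosomal run, was at 7.36, 7.76 and 8.15 on the competent arrays and at 8.57, 8.21 and 8.45 on the deficient arrays. The groups did not overlap, but competent 3 lay just under deficient 2. The difference of 0.66 (SE 0.18) was near that of Trim12a in size and did not pass (adjusted p = 0.095). It passed without competent 3 (0.85, adjusted p = 0.022) and with array weights (0.78, adjusted p = 0.037).

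Trim21 (row 10566144) encodes the cytosolic Fc receptor that binds antibody-coated pathogens. It was at 9.36, 9.71 and 9.51 on the competent and at 10.02, 9.92 and 10.10 on the deficient arrays, with no overlap. The difference was 0.49 (SE 0.11), 1.40-fold, and the adjusted p of 0.052 just missed the threshold. It passed under quantile normalization (0.58, adjusted p = 0.026), with a trended robust prior (0.033), with array weights (0.028) and with the filter at the median (0.045). With the mean of all rows of a gene it passed only at the threshold (adjusted p 0.05 after rounding). Trim21 has a single row, so its difference did not change there.

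Trim26 (row 10445033), a ligase that acts on IRF3, had the smallest spread of the list. Its values were 7.31, 7.36 and 7.34 on the competent and 7.69, 7.66 and 7.70 on the deficient arrays. The difference of 0.35 (SE 0.09, adjusted p = 0.066) exceeded the range within either group, 0.05 and 0.03. It passed under quantile normalization (0.041) and with array weights (0.043).

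Trim25 (row 10380260) encodes the ligase that ubiquitylates the RNA sensor RIG-I. It was at 9.05, 9.16 and 9.41 on the competent and 9.73, 9.32 and 9.54 on the deficient arrays, and deficient 2 lay under competent 3. The difference of 0.32 did not pass (95% interval from 0.02 to 0.62, adjusted p = 0.24).

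Trim56 (row 10534679), which acts in STING and TLR3 signalling, was at 8.53, 8.75 and 7.71 on the competent and at 9.06, 8.96 and 8.62 on the deficient arrays. Competent 3 stood apart at the low end, and deficient 3 was the lowest of its group and lay under competent 2. The difference was 0.55 (SE 0.24, adjusted p = 0.26), and 0.24 without competent 3. The 17 myeloid and dendritic cell markers had the same low arrays, with a mean of 6.75, 7.11 and 6.20 on the competent and 7.83, 7.61 and 7.03 on the deficient arrays. With that mean as a covariate the difference of Trim56 was -0.17 (SE 0.19, adjusted p = 0.69). The marker mean moved with the groups, so a fit on 6 arrays cannot separate it from them. The part of myeloid cells in the Trim56 values was not tested.

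Trim14 (row 10512766), a mitochondrial adaptor for MAVS without a RING finger, differed by 0.07 (95% interval from -0.14 to 0.29, adjusted p = 0.74). Its values were 7.94, 7.97 and 8.03 on the competent and 8.12, 8.11 and 7.94 on the deficient arrays, so the lowest values of both groups coincide. Trim38, an inhibitor of TLR and cytokine signalling, was under the filter on every array, at 4.21, 4.06 and 4.16 on the competent and 4.09, 4.10 and 4.25 on the deficient arrays, and its difference there was 0.01.

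Groups were apart, with every deficient array higher, for 6 of the 10 tested interferon-induced members, where this held for 11.4% of all genes tested. It held for 1 of the 35 other TRIM genes, Trim71. In either direction the groups were apart for 8 of the 45 tested members, against 24.3% of all genes.

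The run of TRIM genes on chromosome 7 that holds the Trim30 genes has 11 Trim symbols between olfactory receptor genes in the annotation, in the order Trim6, Trim34a, Trim5, Trim12a, Trim34b, Trim12c, Trim30b, Trim30c, Trim30a, Trim30d and Trim30e-ps1. Of these, 7 have a row of their own and 5 were tested. All 3 TRIM genes that rose lie in this run, where 1.34% of all genes tested were higher. The rows of Trim30a and Trim30d can bind transcripts of near-identical copies, so the 3 may not be separate increases. The pseudogene Trim30e-ps1 was under the filter, at 4.84, 4.89 and 5.09 on the competent and 5.34, 5.11 and 5.29 on the deficient arrays. Its difference of 0.30 had the direction of its neighbours, on a row that can bind their transcripts. Trim6, at the other end of the run, was under the filter too (4.74 to 5.00), with a difference of 0.08. Trim21 and Trim68 lie elsewhere on chromosome 7, and Trim68 differed by -0.05 (SE 0.10).

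**Figure D2:**
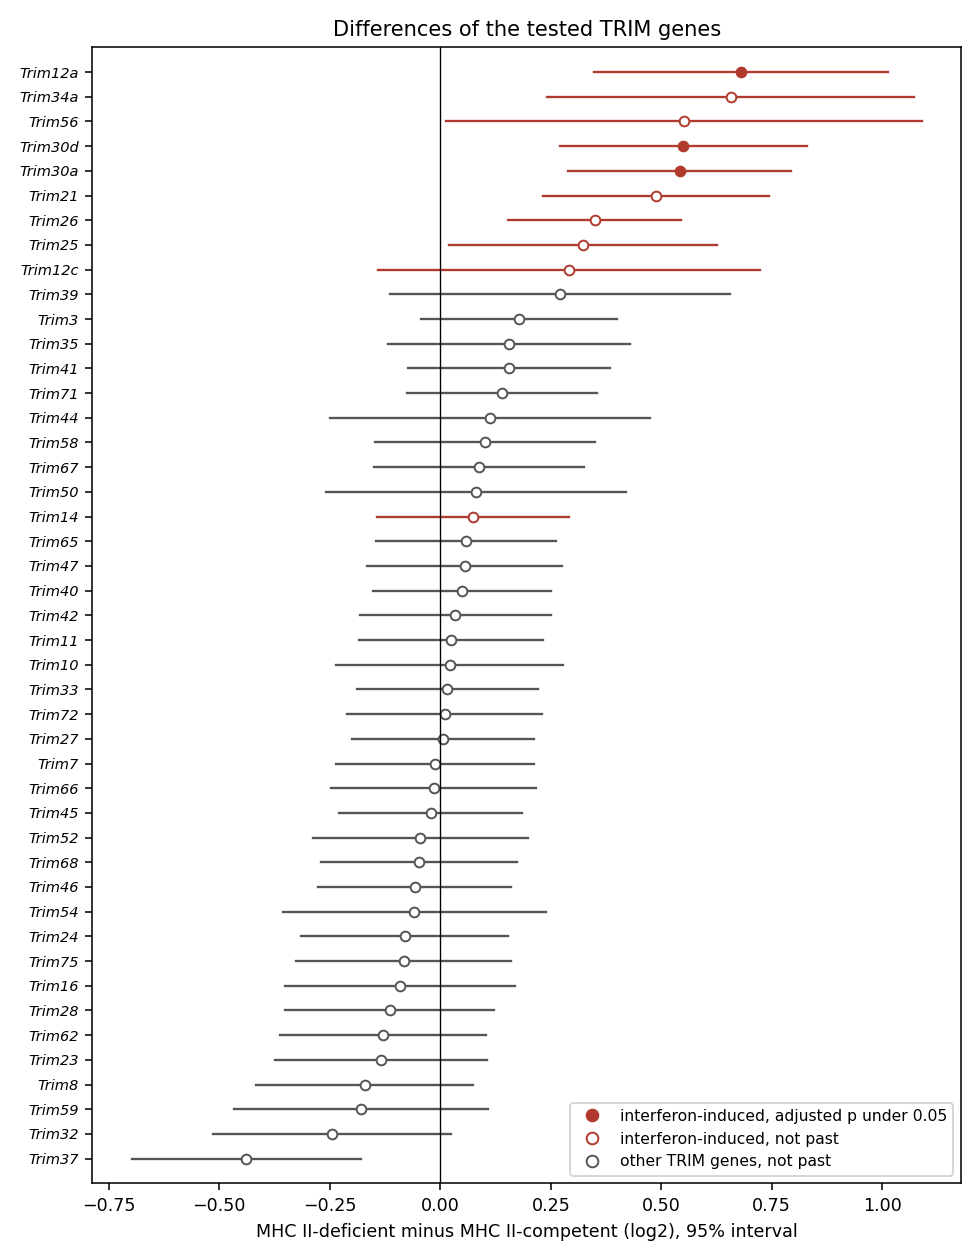
Difference of each of the 45 tested TRIM genes, MHC II-deficient minus MHC II-competent on the log2 scale, with limma's 95% interval; red marks interferon-induced members, grey the others, and filled points the 3 genes past the threshold. The upper 9 genes are all interferon-induced, from Trim12a at 0.68 to Trim12c at 0.29, and Trim37 lies lowest at -0.44.

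Outside the interferon-induced list, 0 of the 35 tested members passed limma's test and 1, Trim37, had an unadjusted p under 0.05. Their differences ran from -0.44 to 0.27, with 18 positive and 17 negative. Trim37 (row 10379998) encodes a ligase with a MATH domain that is mutated in mulibrey nanism and limits centriole assembly. It was at 8.37, 8.41 and 8.21 on the competent and at 7.69, 7.99 and 7.99 on the deficient arrays, with every deficient array lower. The difference was -0.44 (SE 0.11, adjusted p = 0.076), and the adjusted p lay between 0.055 and 0.25 with 1 array left out. Among the 35 it was the only member whose deficient arrays were all lower, and 12.9% of all genes tested showed this.

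The 4 chromatin-associated TRIM genes with PHD finger and bromodomain had small differences. Trim28, the corepressor KAP1 that silences endogenous retroviruses with KRAB zinc finger proteins, was at 8.54, 8.41 and 8.37 on the competent and 8.23, 8.48 and 8.27 on the deficient arrays. The groups overlapped, with a difference of -0.12 (95% interval from -0.35 to 0.12). Trim33, which acts on Smad signalling, differed by 0.02 (95% interval from -0.19 to 0.22). Trim24, a coregulator of nuclear receptors, differed by -0.08 (-0.32 to 0.15) and Trim66 by -0.02 (-0.25 to 0.22). These intervals leave room for differences of up to 0.35 in size.

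Of the NHL domain genes, 3 of 4 were tested. Trim32, a ligase linked to muscle disease, was at 8.83, 8.44 and 8.75 on the competent and at 8.34, 8.46 and 8.48 on the deficient arrays. Competent 2 lay within the deficient range, and the difference was -0.25 (95% interval from -0.51 to 0.02, adjusted p = 0.31). It was -0.06 with the myeloid mean as a covariate. Trim3 stood at 6.84, 6.82 and 6.99 on the competent and 7.09, 6.97 and 7.13 on the deficient arrays, a difference of 0.18 (adjusted p = 0.37) with 1 deficient array just under the highest competent value. Trim71, known from embryonic stem cells as Lin41, differed by 0.14 (adjusted p = 0.48).

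Of the other PRY-SPRY genes 15 of 19 were tested, with differences from -0.13 (Trim62) to 0.27 (Trim39). Trim39, a regulator of the cell cycle ligase APC/C, was at 6.36, 6.56 and 6.81 on the competent and 6.72, 6.61 and 7.21 on the deficient arrays. The groups overlapped (adjusted p = 0.43), and the difference was 0.09 without deficient 3 and 0.67 (adjusted p = 0.18) with the myeloid mean as a covariate. Trim27, a ligase that acts in T cell receptor signalling, differed by 0.01 (95% interval from -0.20 to 0.21), with arrays between 8.92 and 9.05.

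Trim59, 1 of 2 members with a transmembrane segment and the tested one, was at 9.78, 10.22 and 10.03 on the competent and at 9.78, 9.76 and 9.96 on the deficient arrays. The groups overlapped, and the difference of -0.18 (adjusted p = 0.50) was -0.07 without competent 2. Trim8, a partner of SOCS1 with a RING finger and no C-terminal domain, was at 6.60, 6.74 and 6.48 on the competent and at 6.31, 6.56 and 6.43 on the deficient arrays, a difference of -0.17 (adjusted p = 0.44). Trim23, which carries an ARF domain, differed by -0.14 and Trim45 by -0.02, so all 3 tested genes of the ARF, MATH and filamin class had negative values. Trim44 and Trim16, which lack a RING finger, differed by 0.11 and -0.09. Of the 7 genes of the COS box class 3 were tested, with differences from -0.06 to 0.09. Of the 4 genes with a RING finger and no C-terminal domain 3 were tested, with differences from -0.17 to 0.05. Trim42, in none of these classes, differed by 0.03.

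Of the 11 members with a row that are known for expression in other tissues, such as Trim54, Trim55, Trim63 and Trim72 in muscle, Trim9 and Trim67 in neurons and Trim10 and Trim58 in red cell precursors, 7 passed the filter. Their differences ran from -0.06 to 0.14, and 0 passed limma's test (0 of the 7 at an unadjusted p under 0.05). Over the family, 14 members were not tested because of low values, and their differences ran from -0.13 (Trim13) to 0.30 (Trim30e-ps1). Trim72, at a mean of 5.22, was the member just above the filter and Trim9, at 5.18, the one just below.

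Of the TRIM genes with other symbols, Pml, which organises nuclear bodies and is itself interferon-induced, rose by 0.64 (SE 0.11, adjusted p = 0.020), a 1.56-fold difference. It stood at 8.18, 8.16 and 7.94 on the competent and 8.85, 8.58 and 8.79 on the deficient arrays, with no overlap, and did not pass without competent 2, deficient 1 or deficient 3 (highest adjusted p 0.089), nor with the myeloid mean as a covariate (0.53, adjusted p = 0.21). Mid1 and Mid2, which bind microtubules, differed by 0.17 (adjusted p = 0.49) and -0.28 (adjusted p = 0.44). Mefv, the pyrin gene, was under the filter.

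Nucleic acid sensing is the pathway on which many TRIM ligases act. Among 18 of its genes tested here 4 rose and 0 fell, where 1.34% of all genes tested were higher and 2.03% lower. The 4 were Irf7 (1.78, adjusted p = 0.00085), a transcription factor, and the RNA sensor genes Dhx58 (1.01, adjusted p = 0.0034), Ifih1 (0.77, adjusted p = 0.0062) and Ddx58 (0.72, adjusted p = 0.010), the last of which encodes RIG-I. The median of the 18 was 0.05. The call of Ddx58 ended without deficient 1 (adjusted p = 0.054). With the mean of the myeloid markers as a covariate Irf7 passed, and Dhx58 (0.79, adjusted p = 0.076), Ifih1 (0.87, adjusted p = 0.054) and Ddx58 (0.62, adjusted p = 0.15) did not. Of the 18 genes, 7 had negative differences. Every deficient array was higher for 5 of the 18 (11.4% of all genes tested) and lower for 4 (12.9% of all genes tested). The 4 lower genes did not pass. They were the DNA sensor gene Cgas (-0.39, adjusted p = 0.10), Ddx41 (-0.39, adjusted p = 0.055), the adaptor gene Myd88 (-0.30, adjusted p = 0.16) and Rnf135 (-0.25), a ligase gene for RIG-I.

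All 14 tested interferon-stimulated reference genes rose, with a median of 1.33 and differences from 0.74 to 2.32, where 1.34% of all genes tested were higher. The list was chosen with earlier results of these data known, so this count is a description. Irf7 and Dhx58 belong to this list and to the sensing list. The increases of Oasl2 (2.32), Irf7 (1.78), Ifit1 (1.45) and Stat2 (1.26) had the smallest p. Every interferon-induced TRIM gene had a smaller difference than each of the 14, since the TRIM values ended at 0.68. This comparison of 2 lists has no test. Among tested genes with a promoter window, 38 of 435 with the ISRE core were called higher (8.74%), against 117 of 11450 without it (1.02%). The first set includes the 7 TRIM genes whose sites are printed above.

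**Figure D3:**
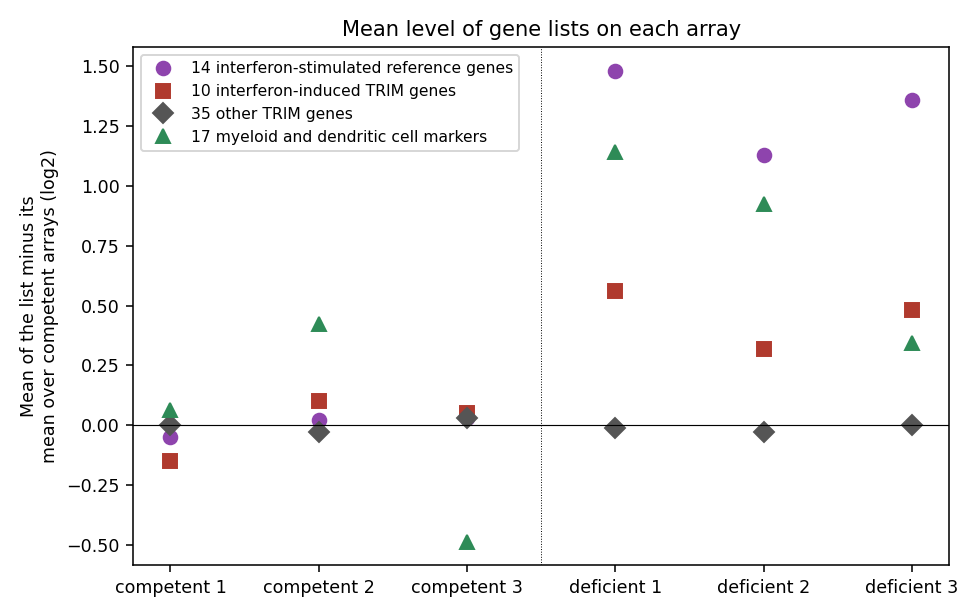
Mean log2 level of 4 gene lists on each array, set relative to the list's mean over the 3 MHC II-competent arrays; the dotted line parts the groups. The interferon-induced TRIM genes (red squares) have all 3 deficient arrays above all 3 competent arrays with deficient 2 lowest, the other TRIM genes (grey diamonds) stay near 0, and the myeloid markers (green triangles) are lowest on competent 3.

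Averaged over the 10 tested genes, the interferon-induced TRIM level was 8.60, 8.85 and 8.80 on the competent and 9.31, 9.07 and 9.23 on the deficient arrays. The 14 reference genes had the same lowest deficient array, at 9.66, 9.31 and 9.54, against 8.13, 8.20 and 8.21 on the competent arrays. The 35 other TRIM genes lay between 6.85 and 6.91 on all 6 arrays.

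Markers of myeloid cells moved with the groups. All 17 were above the filter, 15 had a positive difference, and the median was 0.90. Adgre1 was the 1 that passed limma's test (adjusted p = 0.035), where 3.37% of all genes tested passed. An unadjusted p under 0.05 was found for 15 of the 17, against 2842 of all 15037 genes. Groups did not overlap for 8 of the 17, against 24.3% of all genes. Every deficient array was higher for 6 (11.4% of all genes) and lower for 2 (12.9% of all genes). The 2 were Itgam (-0.432) and Cst3 (-0.275). The mean of the 17 markers ranged from 6.20 to 7.11 on the competent and from 7.03 to 7.83 on the deficient arrays. This mean moved with the groups, so a fit on 6 arrays cannot separate it from them. The part of myeloid cells in the TRIM values was not tested. With the myeloid mean as a covariate the median of the 10 interferon-induced TRIM genes was 0.48, against 0.51 without it. Trim30a was then at 0.56 (SE 0.18), Trim12a at 0.74 (SE 0.23) and Trim30d at 0.58 (SE 0.19), with larger errors than before, and 0 of the 45 TRIM genes passed limma's test (8 at an unadjusted p under 0.05). Without the covariate 9 of the 45 had such an unadjusted p. Over all genes tested, 0.539% passed with the covariate, against 3.37% without it. B cell markers (4 tested, median 0.10), CD8 T and NK cell markers (5 tested, median 0.26) and erythroid and platelet markers (4 tested, median 0.17) had 0 genes past limma's test (2, 2 and 1 at an unadjusted p under 0.05), and their part in the TRIM values was not tested.

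**Figure D4:**
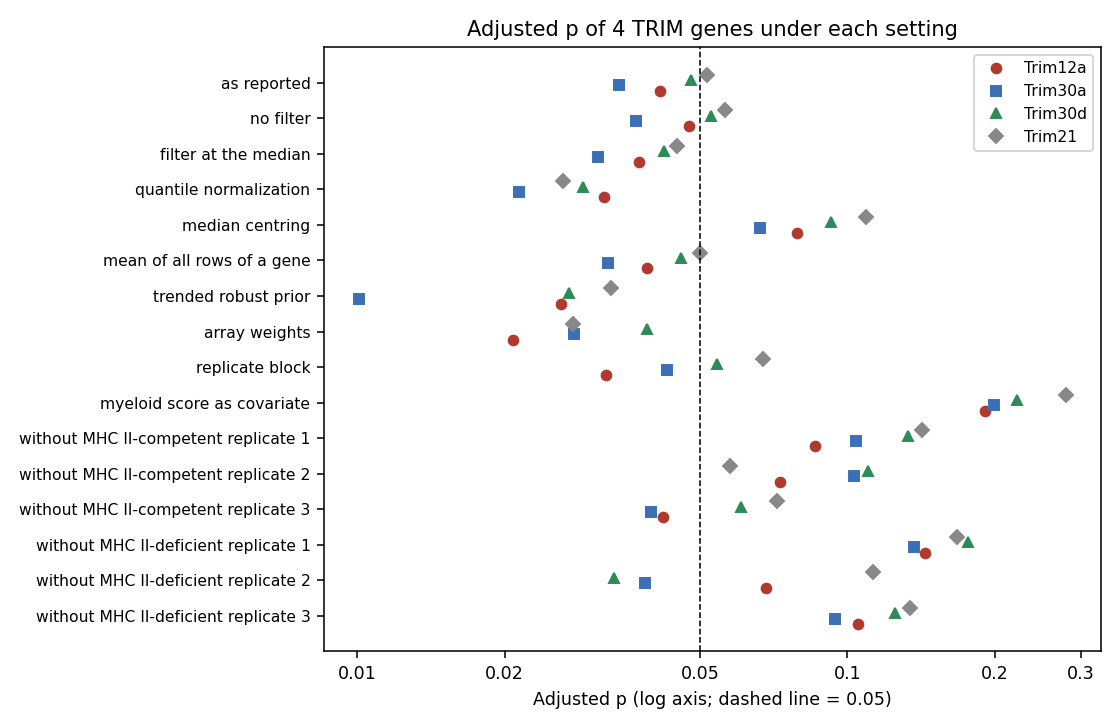
Adjusted p (log axis) of Trim12a, Trim30a, Trim30d and Trim21 as reported and under each of 15 other settings, with a dashed line at the threshold of 0.05. Trim30a lies left of the line in 9 of the 15. All 4 genes lie right of it with median centring and with the myeloid mean as a covariate. They also do so without competent 1, competent 2, deficient 1 or deficient 3.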

How the data were processed

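Each of the 6 single-colour Affymetrix arrays gave 28101 deposited log2 values, made by the authors with affy and RMA (background correction, quantile normalization, summary per row) per the submitters' processing notes. The base of 2 was taken from the range, 2.40 to 13.33; versions and genome build are not given in the sources used here. Array medians were 6.11 to 6.25. Rows were named by the platform annotation, with symbols updated through Entrez identifiers (59 of 59 members found, 0 renamed). A gene with several rows kept the one with the highest mean. Differences (deficient minus competent) were fitted without further normalization in limma 3.58.1 (R 4.3.3, two-sided, 4 residual degrees of freedom, 9.40 with the prior) and adjusted over all 15037 genes. The number of arrays limits precision. The fit was tested on simulated data. Members and lists were chosen with earlier results of these data known. Values per array are given for every interferon-induced member, every called member and the 6 other tested members with the largest differences; remaining members are given by class. The labels do not say that replicate numbers pair arrays, so no pairing was used. Over all genes tested, same-numbered arrays did not deviate together (correlations -0.03, -0.14 and 0.07). The mean of the myeloid markers, though, was lowest on replicate 3 of both groups (6.20 and 7.03). Protein sequences were not used here. Some planned results are not reported here.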

Additional observations from a re-analysis of the deposited data

Results flagged for a closer look

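Row 10566333, which is paired with 3 gene symbols and so enters no named result, was higher on every deficient array (9.12, 8.96 and 9.17) than on the competent arrays (8.34, 8.78 and 8.57). It was picked for this from the 6 rows that carry a Trim symbol together with others, and it was not tested. Every deficient array was higher for 11.4% of all genes tested as well. The difference of the row was 0.52 on the log2 scale. Of the other 5 such rows with a Trim symbol, 0 had groups apart, and their differences ran from 0.03 to 0.35.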

How the results depend on the processing

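The direction of the interferon-induced TRIM genes held in 149 of 150 combinations of 10 genes and 15 alternatives, the exception being Trim56 with the myeloid mean as a covariate (-0.17). The count of those past the threshold (3) was 5 under quantile normalization, 6 with array weights, 0 with median centring, 0 with the myeloid covariate, and 0 to 3 with 1 array left out. The count without competent 1, competent 2, deficient 1 or deficient 3 was 0. With median centring 8 of the 45 TRIM genes had an unadjusted p under 0.05 in limma's test. As reported, this held for 9 of the 45 and for 2842 of all 15037 genes. With the replicate number as a block, Trim30d did not pass (0.55, adjusted p = 0.054) and 2 members did. Trim30d also missed it with no filter (adjusted p = 0.053). The median difference of the other TRIM genes, 0.01 as reported, turned to -0.041 under quantile normalization and -0.047 with median centring, and ran from -0.01 to 0.02 with 1 array left out. Over all genes, 201 were higher and 306 lower. Under quantile normalization 246 were higher and 231 lower, and with array weights 289 were higher and 447 lower. The higher count was 128 with median centring and 30 with the myeloid covariate, where 51 were lower. With 1 array left out 72 to 223 were higher and 81 to 486 lower. The 4 residual degrees of freedom, 3 with an array left out or with the covariate, limit what could be called.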
